A study of Mus musculus with 8 samples.

Results

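The 10 genes described here encode the regulators of the unfolded protein response and of the integrated stress response in mouse hepatocytes: Ern1, Xbp1, Atf6, Atf6b, Creb3l3, Eif2ak3, Atf4, Ddit3, Ppp1r15a and Trib3. They were taken by symbol from the 17276 genes of each deposited table. The rule uses no measured value, but the set was chosen with earlier results of these data known. The cells were hepatocytes of male WT C57BL/6N mice aged 6 to 8 weeks, the same for all libraries. Cells of 4 libraries had been exposed to shear stress, the frictional force of a moving fluid on a cell surface, and those of 4 libraries had been kept static. The material was total RNA, read by DNBSEQ sequencing. How strong the stress was and how long it lasted is not in the labels, nor is whether the 4 libraries per group stem from different animals or cultures. The p-values thus measure the spread among these libraries, part or all of which may be technical. Each group carries replicate numbers 1 to 4, and libraries with the same number were treated as a pair.

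When unfolded proteins build up in the endoplasmic reticulum (ER), sensors in its membrane respond. IRE1α, the product of Ern1, cuts an intron out of the Xbp1 messenger, which then encodes an active transcription factor. ATF6, and its relatives ATF6B and CREB3L3, travel to the Golgi, where the site proteases S1P and S2P release a transcription factor from each. PERK, the product of Eif2ak3, phosphorylates the initiation factor eIF2α. This lowers translation in general but raises that of ATF4, whose targets include CHOP (Ddit3), the phosphatase subunit GADD34 (Ppp1r15a), which reverses the phosphorylation, and the pseudokinase TRIB3, which binds ATF4 and limits its activity. In the liver, a secretory organ, these factors also act on lipid and glucose metabolism, and CREB3L3 (also CREBH) is largely restricted to liver and intestine. Gene totals show neither the splicing of Xbp1 nor the cleavage of ATF6, nor the phosphorylation of any protein.

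Promoter windows, from 250 bases before to 50 bases after a gene start, were read from RefSeq (GRCm38.p6) for 9 of the 10 genes, in 10 windows. Exact matches were sought on both strands to the letters of elements known from these pathways. The sequences shown hold the rarer matches, on the strand of the gene, with the match in capitals. In Trib3 the match is to the C/EBP-ATF composite element (TGATGNAA, here on the opposite strand), which ATF4 is known to bind. It starts 15 bases past the gene start, at chr2:152344029-152344056, minus strand. In Ppp1r15a the match is to the cyclic AMP response element (TGACGTCA), 12 bases before the start, at chr7:45526269-45526306, minus strand. In Ddit3 (chr10:127290543-127290583, plus strand), Eif2ak3 (chr6:70844304-70844362, plus strand) and Creb3l3 (chr10:81098895-81098953, minus strand) it is to the AP-1 element (TGANTCA).
Trib3: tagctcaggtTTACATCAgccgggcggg
Ppp1r15a: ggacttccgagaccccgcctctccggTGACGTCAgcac
Ddit3: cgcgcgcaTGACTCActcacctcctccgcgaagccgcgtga
Eif2ak3: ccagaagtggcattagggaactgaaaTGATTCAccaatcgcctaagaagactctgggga
Creb3l3: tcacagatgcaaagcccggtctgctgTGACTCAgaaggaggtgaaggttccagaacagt

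Over all 32851 promoter windows of the table, 3.97% held the composite element, 1.79% the cyclic AMP response element and 7.81% the AP-1 element, against 1, 1 and 3 of the 10 windows of these genes. The ER stress element, CCAAT and CCACG with 9 bases between them, was in 0 of the 10 windows and in 0.119% of all. The XBP1 element TGACGTGG was in 0 of the 10 and in 0.676% of all. CCACG alone was in 4 of the 10 windows (Atf4, Creb3l3, Ern1 and Ppp1r15a) and in 32.8% of all. These are matches of letters in a short window, and binding was not measured.

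All 10 genes had enough reads to be tested, with a lowest value of 175 estimated counts (Ddit3 in shear stress replicate 3). Under shear stress 3 genes rose (Xbp1, Atf6b and Trib3), 5 fell (Ern1, Atf6, Eif2ak3, Atf4 and Ppp1r15a) and 2 were not called (Creb3l3 and Ddit3). The test was edgeR's quasi-likelihood test with the pair as a block, and a call is a Benjamini-Hochberg adjusted p below 0.05 over all 11747 genes tested. Calls were common: 61.1% of all tested genes were called, 30.1% higher and 31.0% lower. A called change of at least 2-fold was reached by 4 of the 10 (Atf6, Eif2ak3, Ppp1r15a and Trib3), against 18.1% of all tested genes. The groups did not overlap in CPM (counts scaled by library size and TMM factors) for 7 of the 10, against 45.3% of all. The median log2 fold change of the 10 genes was -0.40 and the median of its absolute size 0.76, against -0.0025 and 0.45 over all tested genes. Each of the 8 calls was kept, with the same direction, in all 19 alternative fits.

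**Figure D1:**
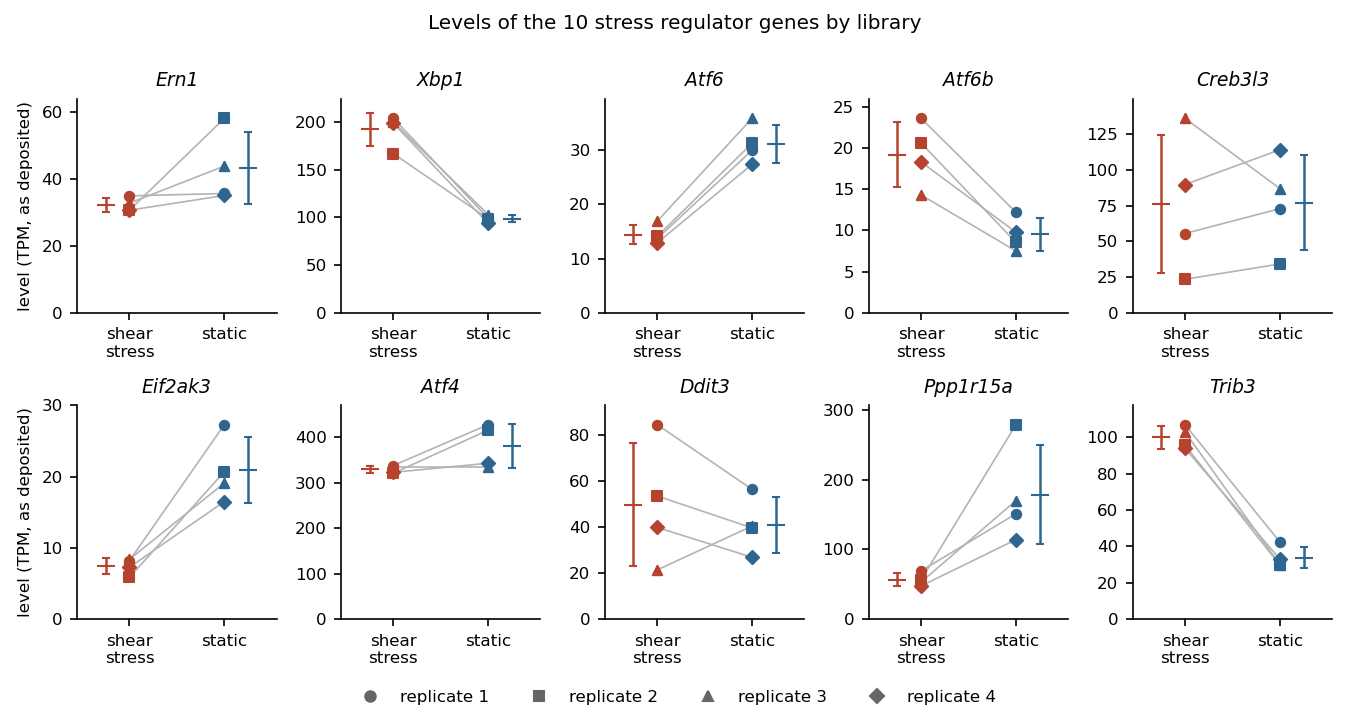
Level of each of the 10 genes in TPM (as deposited, scaled for length and library; vertical axes start at 0), shear stress libraries on the left and static libraries on the right of each panel. Lines join libraries with the same replicate number, and the bars beside the points are mean ± SD (n = 4). All 4 lines fall towards static for Xbp1, Atf6b and Trib3, all 4 climb for Ern1, Atf6, Eif2ak3 and Ppp1r15a, and the lines of Creb3l3 and Ddit3 cross.

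Among the sensors, Eif2ak3, which encodes PERK (Gene ID 13666; chr6:70844484-70905241), changed most. Its level in TPM, which is scaled for transcript length, was 8.19, 5.84, 8.38 and 7.27 TPM in shear stress libraries 1 to 4, against 27.3, 20.7, 19.1 and 16.5 TPM in static libraries 1 to 4. The highest shear stress library lay well below the lowest static library. The log2 fold change was -1.80 ± 0.14 (SE; adjusted p = 7.82e-06, edgeR), a 3.49-fold lower level, and all 4 pairs fell, with log2 ratios between -2.20 and -1.42.

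Atf6 (Gene ID 226641; chr1:170704457-170868585), the ER-bound transcription factor that is cut in the Golgi, was at 13.7, 14.1, 16.9 and 12.9 TPM under shear stress, against 30.0, 31.3, 35.9 and 27.4 TPM in static libraries. Every static library exceeded every shear stress library. Atf6 fell 2.54-fold, by 1.34 ± 0.07 on the log2 scale (adjusted p = 1.12e-06, edgeR). The 4 pairs gave log2 ratios between -1.39 and -1.29, the narrowest span of the 10 genes.

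Atf6b (Gene ID 12915; chr17:34647146-34655074), its close relative, went the other way. It was at 23.6, 20.6, 14.3 and 18.3 TPM under shear stress, against 12.2, 8.53, 7.49 and 9.77 TPM in static libraries. The groups were apart in TPM, but in CPM the lowest shear stress library (22.4) lay under the highest static library (23.7). Within pairs the level was higher under shear stress in 4 of 4, and the log2 fold change was 0.79 ± 0.11 (adjusted p = 0.000215, edgeR), a 1.73-fold rise. The ratio of Atf6 to Atf6b in TPM averaged 0.787 ± 0.264 in shear stress and 3.44 ± 1.04 in static libraries (SD, n = 4), and the highest ratio under shear stress was 1.17, against a lowest of 2.47 in static libraries.

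Ern1 (Gene ID 78943; chr11:106397620-106487796), the gene of IRE1α, was at 35.0, 30.7, 32.8 and 30.7 TPM under shear stress, against 35.7, 58.2, 43.9 and 35.1 TPM in static libraries. The groups nearly touched in TPM, and most of the distance came from static replicates 2 and 3. In CPM they were further apart, at 83.4 ± 9.54 under shear stress and 129 ± 24.2 in static libraries (SD, n = 4). Ern1 fell by 0.62 ± 0.14 on the log2 scale (adjusted p = 0.00403, edgeR), in 4 of 4 pairs. With library totals in place of TMM scaling factors the log2 fold change was -0.40 (adjusted p = 0.0241).

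Creb3l3 (Gene ID 208677; chr10:81084329-81098872), the liver-enriched factor of lipid and acute phase genes, was at 55.4, 23.4, 136 and 89.7 TPM under shear stress, against 72.8, 34.1, 86.9 and 114 TPM in static libraries. Replicate 2 was the lowest in both groups, and the spread within each group exceeded the distance between them. Pairs 1, 2 and 4 were lower under shear stress, with log2 ratios between -0.76 and -0.55, and pair 3 was higher, at 0.35. The log2 fold change of -0.38 ± 0.17 was not called (adjusted p = 0.0857, edgeR). It was called without pair 3, at -0.63 (adjusted p = 0.000392), and by DESeq2, at -0.39 (adjusted p = 0.0316), and in none of the other alternatives.

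**Figure D2:**
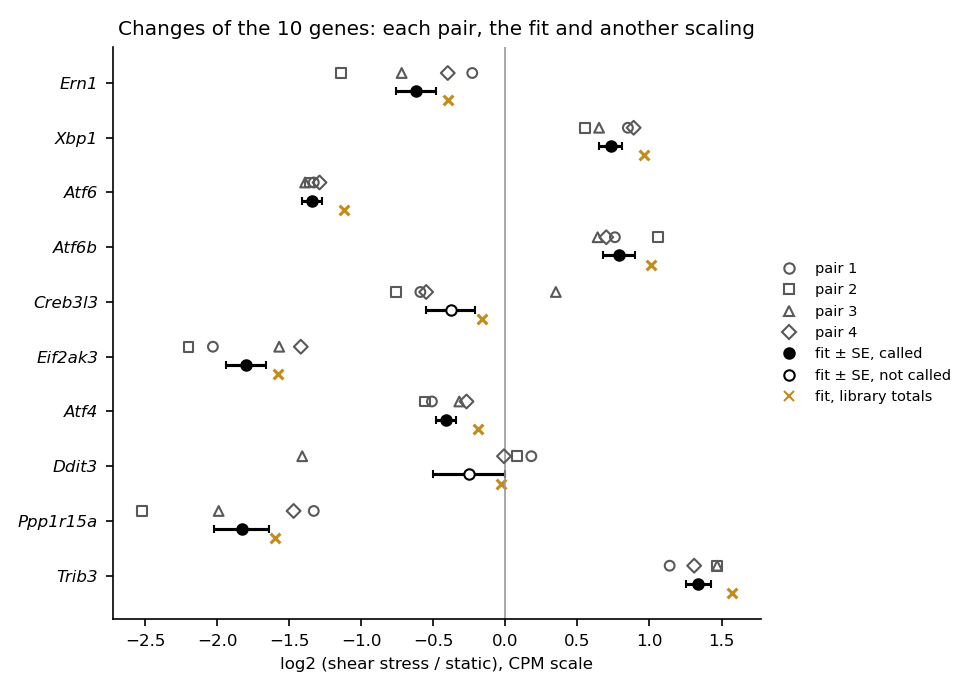
Log2 ratio of shear stress to static for each of the 10 genes on the CPM scale: open grey symbols are the 4 pairs, circles with bars the fitted log2 fold change ± SE (filled where called), and crosses the fit scaled by library totals. The 4 pairs of Atf6 lie between -1.39 and -1.29, while pair 3 stands away from the others for Creb3l3 (0.35) and Ddit3 (-1.41).

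Of the transcription factors downstream of the sensors, Xbp1 (Gene ID 22433; chr11:5520641-5525993), the substrate of IRE1α, was at 204, 167, 200 and 199 TPM under shear stress, against 99.2, 98.5, 103 and 93.7 TPM in static libraries. The static libraries lay close together, and all were well below the shear stress libraries. Xbp1 rose 1.66-fold (0.73 ± 0.08, adjusted p = 4.22e-05, edgeR), in 4 of 4 pairs. Since Ern1 fell while Xbp1 rose, the TPM ratio of Xbp1 to Ern1 averaged 5.96 ± 0.436 under shear stress and 2.37 ± 0.489 in static libraries (SD, n = 4), with no overlap.

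Atf4 (Gene ID 11911; chr15:80255184-80257545), the central factor of the integrated stress response, which is controlled largely at translation, had the highest TPM of the 10 genes in both groups. It was at 338, 321, 335 and 323 TPM under shear stress, against 428, 416, 335 and 343 TPM in static libraries. The TPM ranges overlapped. In CPM they did not, with 296 to 355 under shear stress and 405 to 504 in static libraries, since CPM here includes the TMM factors. Atf4 fell by 0.41 ± 0.07 on the log2 scale (adjusted p = 0.000818, edgeR), the smallest called change of the 10 genes, and by 0.19 with library totals (adjusted p = 0.0419).

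Ddit3 (Gene ID 13198; chr10:127290793-127296291), which encodes CHOP, a factor linked to cell death in prolonged ER stress, was at 84.7, 53.6, 21.4 and 39.9 TPM under shear stress, against 56.5, 39.7, 40.5 and 26.9 TPM in static libraries. The groups overlapped across most of their range. Pairs 1, 2 and 4 had log2 ratios between -0.01 and 0.18 in CPM, and pair 3 was at -1.41. The log2 fold change of -0.25 ± 0.25 was not called (adjusted p = 0.409, edgeR) and was called in 0 of the 19 alternatives. Its sign turned without pair 3 (0.09) and on the log2(TPM + 1) scale (0.17).

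Of the 2 feedback genes, Ppp1r15a (Gene ID 17872; chr7:45522917-45526268), which directs protein phosphatase 1 to eIF2α, was at 69, 56.3, 53.0 and 47.4 TPM under shear stress, against 151, 279, 170 and 114 TPM in static libraries. No library of one group reached the range of the other, and static replicate 2 was far above its group. Ppp1r15a fell 3.55-fold (-1.83 ± 0.19, adjusted p = 0.000156, edgeR), with pair log2 ratios between -2.52 and -1.33. Ppp1r15b, the constitutive subunit for the same phosphatase, was at 23.0, 23.8, 28.3 and 24.2 TPM under shear stress, against 30.2, 37.4, 30.3 and 29.4 TPM in static libraries. It fell less, by 0.59 ± 0.09 on the log2 scale (adjusted p = 0.000355, edgeR). The TPM ratio of Ppp1r15a to Ppp1r15b averaged 2.30 ± 0.515 under shear stress and 5.49 ± 1.5 in static libraries (SD, n = 4).

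Trib3 (Gene ID 228775; chr2:152337425-152344060) was at 107, 95.7, 103 and 94.0 TPM under shear stress, against 42.4, 29.8, 30.0 and 33.0 TPM in static libraries. The groups were far apart, and each was narrow. Trib3 rose 2.54-fold (1.34 ± 0.09, adjusted p = 3.21e-06, edgeR), with pair log2 ratios between 1.14 and 1.47. While the Atf4 messenger fell, the TPM ratio of Trib3 to Atf4 was between 0.291 and 0.316 under shear stress and between 0.0716 and 0.0992 in static libraries.

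The order of the 10 genes by mean TPM, which is scaled for length, differed between the groups. Under shear stress it ran Atf4 (329), Xbp1 (193), Trib3 (99.8), Creb3l3 (76.3), Ppp1r15a (56.4), Ddit3 (49.9), Ern1 (32.3), Atf6b (19.2), Atf6 (14.4) and Eif2ak3 (7.42). In static libraries it ran Atf4 (380), Ppp1r15a (179), Xbp1 (98.6), Creb3l3 (77.0), Ern1 (43.2), Ddit3 (40.9), Trib3 (33.8), Atf6 (31.2), Eif2ak3 (20.9) and Atf6b (9.48). Neighbours from Trib3 to Ern1 in the shear stress order, and Atf6b with Atf6, overlapped in their library ranges. In the static order the neighbours from Xbp1 to Atf6 overlapped. Ppp1r15a thus stood in the fifth place under shear stress and in the second in static libraries. Trib3 stood in the third under shear stress and in the seventh in static libraries.

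The eIF2 kinases share 1 substrate, and their makeup differed between the groups. Of the summed TPM of the 4 kinase genes, Eif2ak3 held 13.3% ± 2.57 under shear stress and 32.2% ± 5.0 in static libraries (SD, n = 4), with no overlap. Eif2ak1, the heme-regulated kinase, held 53.5% ± 1.64 under shear stress and 42.7% ± 4.56 in static libraries, and Eif2ak4 (GCN2), which senses uncharged transfer RNA, held 11.4% ± 1.64 under shear stress and 6.19% ± 0.86 in static libraries. Eif2ak4 rose (0.45 ± 0.11, adjusted p = 0.00692, edgeR; called in 14 of 19 alternatives). Eif2ak1 (-0.09 ± 0.09, adjusted p = 0.378) and Eif2ak2, the kinase activated by double-stranded RNA (-0.26 ± 0.11, adjusted p = 0.0638), were not called.

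Within the CREB3 family, Creb3l2, another factor held in the ER membrane and released by the site proteases, was at 40.7, 36.6, 55.4 and 50.6 TPM under shear stress, against 12.8, 15.4, 9.81 and 14.0 TPM in static libraries. It rose without overlap (1.54 ± 0.16, adjusted p = 7.99e-05, edgeR) and held 25.2% ± 3.44 of the family's summed TPM under shear stress and 9.06% ± 3.38 in static libraries (SD, n = 4). Creb3l3 held 37.4% ± 14.1 under shear stress and 49.1% ± 13.3 in static libraries, with overlap. Of the 6 other genes of the family and its site proteases, 3 rose and 1 fell (3 and 0 with library totals), with a median of 0.13. The site 1 protease gene Mbtps1 fell (-0.40 ± 0.09, adjusted p = 0.00285; -0.18 and adjusted p = 0.107 with library totals) and the site 2 protease gene Mbtps2 rose (0.34 ± 0.12, adjusted p = 0.0323; edgeR), the first called in 16 and the second in 11 of 19 alternatives.

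**Figure D3:**
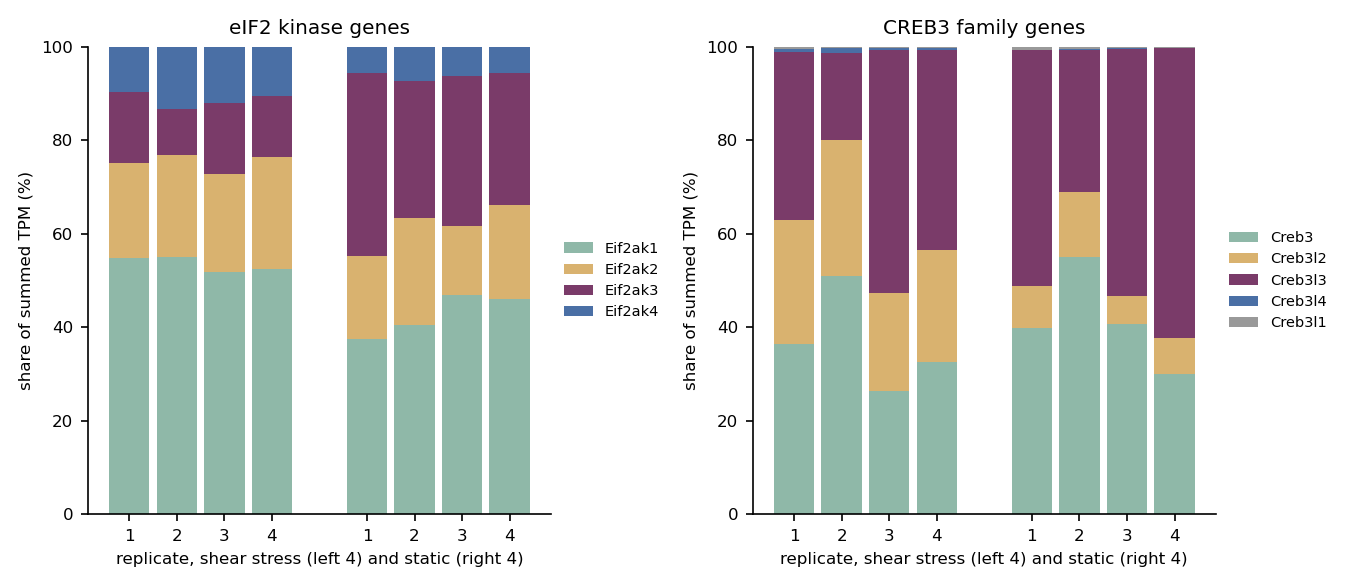
Share of the summed TPM held by each eIF2 kinase gene (left panel) and each CREB3 family gene (right panel), as stacked bars to 100%, with the 4 shear stress libraries left of the 4 static libraries in each panel. Eif2ak3 takes 9.76% to 15.3% under shear stress and 28.3% to 39.3% in static libraries, and Creb3l2 takes 21.1% to 29.2% under shear stress and 5.97% to 13.8% in static libraries.

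Of the other genes of these pathways, 9 lists were examined, 117 tested genes in all. Of these, 22 rose, 43 fell and 52 were not called, with a median log2 fold change of -0.14. The called share was 55.6%, against 61.1% of all tested genes (30.1% higher and 31.0% lower). By list it lay between 26.7% (ATF6 targets) and 76% (ATF4 and CHOP targets). The direction of the list counts rests on the scaling. Library totals, which moved the median of all genes by 0.22, called 5080 of all tested genes higher and 2294 lower. In the lists they gave 38 higher and 24 lower. Without the pair as a block the counts were 18 higher and 28 lower. The direction of a small change in these lists therefore holds only relative to the scaling, and the counts of each list are given under both scalings. List medians are those with TMM unless stated.

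Of 15 targets of ATF6, mostly ER chaperones, 1 rose and 3 fell (3 and 1 with library totals), with a median of 0.12. Hspa5 (BiP), the main ER chaperone, was at 2176, 1417, 1356 and 1085 TPM under shear stress, against 1133, 1269, 1244 and 942 TPM in static libraries. Its log2 fold change of 0.12 ± 0.14 was not called (adjusted p = 0.501, edgeR), and shear stress replicate 1 lay above the rest. Hspa5 was called higher in 2 of 19 alternatives, and over all 19 its log2 fold change lay between -0.08 and 0.36. Creld2, an ER-resident isomerase, rose (0.90 ± 0.23, adjusted p = 0.0118, edgeR; called in 17 of 19 alternatives). Herpud1 (-0.43 ± 0.08), Os9 (-0.37 ± 0.07) and Syvn1 (-0.35 ± 0.09), 3 genes of ER-associated degradation, fell, with adjusted p between 0.00108 and 0.0062. With library totals Os9 (-0.14, adjusted p = 0.112) and Syvn1 (-0.13, adjusted p = 0.193) were not called, nor were they with limma on TPM. Herpud1 was not called without the block (adjusted p = 0.156).

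Of 18 targets of XBP1, which serve folding, translocation and secretion, 3 rose and 7 fell (5 and 3 with library totals), with a median of -0.04, although Xbp1 itself was higher. Dnajb9 (ERdj4), a BiP partner that also restrains IRE1α, was at 51.7, 64.0, 59.8 and 51.4 TPM under shear stress, against 91.8, 117, 90.9 and 65.8 TPM in static libraries. The groups did not overlap, and Dnajb9 fell (-0.89 ± 0.10, adjusted p = 4.89e-05, edgeR). Per unit of Xbp1, its TPM ratio averaged 0.299 ± 0.0601 under shear stress and 0.925 ± 0.201 in static libraries (SD, n = 4). Srpr, the receptor of the signal recognition particle (-0.52 ± 0.07), and Ero1b, an oxidase of disulfide formation (-0.62 ± 0.12, not called without the block), also fell. Ssr1, a translocon subunit (0.61 ± 0.08), and Kdelr3, which returns ER proteins from the Golgi, rose. Kdelr3 averaged 4.43 ± 2.0 TPM under shear stress and 0.807 ± 0.247 TPM in static libraries (2.18 ± 0.27, adjusted p = 8.82e-05, edgeR).

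Of 25 tested targets of ATF4 and CHOP, 7 rose and 12 fell (8 and 10 with library totals), with a median of -0.18, and 6 were not called. Among the called genes with the smallest p were 3 transcription factors. Atf3 was at 50.3, 34.7, 36.2 and 42.1 TPM under shear stress, against 159, 93.6, 119 and 102 TPM in static libraries (-1.75 ± 0.10, adjusted p = 1.6e-06, edgeR), with no overlap. Cebpb (-0.89 ± 0.09) and Atf5 (-0.78 ± 0.07) fell with adjusted p of 3.36e-05 and 2.19e-05. Gdf15, a secreted stress hormone, averaged 117 ± 20.4 TPM under shear stress and 219 ± 14.6 TPM in static libraries (-1.14 ± 0.11, adjusted p = 2.35e-05, edgeR). Ddit4, an inhibitor of mTORC1, went the other way, at 36.8 ± 2.71 TPM under shear stress and 15.1 ± 0.992 TPM in static libraries (1.06 ± 0.11, adjusted p = 3.92e-05, edgeR). Asns, the asparagine synthetase (-0.21 ± 0.07), and Chac1, which degrades glutathione (-0.31 ± 0.09), were called in only 3 and 4 of 19 alternatives, and Fgf21 was not called (0.03 ± 0.18, adjusted p = 0.892, edgeR).

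In ER-associated degradation, which removes misfolded proteins, 12 of 22 genes fell, against 31.0% of all tested genes, and 0 rose, against 30.1%. The median was -0.23. With library totals 2 rose and 6 fell, with a median of -0.01. Among the genes of this list with the smallest p, 4 were called lower in all 19 alternatives. They were Herpud2 (-1.47 ± 0.08), the mannosidase gene Edem3 (-1.01 ± 0.11), and Nploc4 (-0.56 ± 0.07) and Vcp (-0.47 ± 0.07). The last 2 belong to the complex that extracts proteins from the ER. Their adjusted p values, for all 4 genes, were between 1.79e-06 and 0.000303 in edgeR. Herpud2 averaged 20.4 ± 0.988 TPM under shear stress and 48.2 ± 5.54 TPM in static libraries.

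Of 20 genes of the eIF2 kinases and eIF2 machinery other than Eif2ak3, 3 rose and 4 fell (9 and 2 with library totals), with a median of -0.01. Impact, an inhibitor of GCN2 activation, fell by 1.0 ± 0.14 on the log2 scale (adjusted p = 0.000235, edgeR), and Eif2b3, a subunit of the eIF2 exchange factor, rose (0.60 ± 0.11, adjusted p = 0.00122, edgeR). Ppp1cc, a catalytic subunit of phosphatase 1, rose (0.35 ± 0.09, adjusted p = 0.00566, edgeR; called in 16 of 19 alternatives). Of 10 tested partners of IRE1α, 1 rose and 5 fell (3 and 2 with library totals). Rtcb, the ligase that joins the Xbp1 exons, rose (0.26 ± 0.07, adjusted p = 0.0116, edgeR; called in 14 of 19 alternatives). Mapk9 (JNK2, -0.56 ± 0.08), Tmbim6, which restrains IRE1α (-0.38 ± 0.06), and Map3k5 (ASK1, -0.37 ± 0.11) fell. Tmbim6 was not called with library totals (-0.16, adjusted p = 0.059) or with limma on TPM, and Map3k5 was called in only 5 of 19 alternatives (-0.14, adjusted p = 0.304 with library totals).

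Only 4 of 8 listed substrates of IRE1-dependent decay had enough reads. Of these 1 rose and 1 fell (the same counts with library totals), and Sparc, a matrix protein gene, rose at a low level of 2.40 ± 1.01 TPM under shear stress and 1.16 ± 0.439 TPM in static libraries (0.80 ± 0.27, adjusted p = 0.0275, edgeR; called in 7 of 19 alternatives). Of 10 targets of CREB3L3, 3 rose and 2 fell (4 and 1 with library totals), with a median of -0.04. Hamp, the gene of the iron hormone hepcidin, was at 5406, 3621, 5560 and 3102 TPM under shear stress, against 104, 48.9, 120 and 64.2 TPM in static libraries (5.56 ± 0.14, adjusted p = 3.21e-08, edgeR). Apoa5 (0.85 ± 0.22) and G6pc (1.27 ± 0.16) rose, and the plasma protein gene Apcs (-0.44 ± 0.10) and Apoa4 (-0.67 ± 0.12) fell, but G6pc, Apcs and Apoa4 were not called without the block (adjusted p = 0.0931, 0.0568 and 0.51). Apcs was also not called with library totals (-0.22, adjusted p = 0.0887), and Apoa5 was called in 13 of 19 alternatives.

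**Figure D4:**
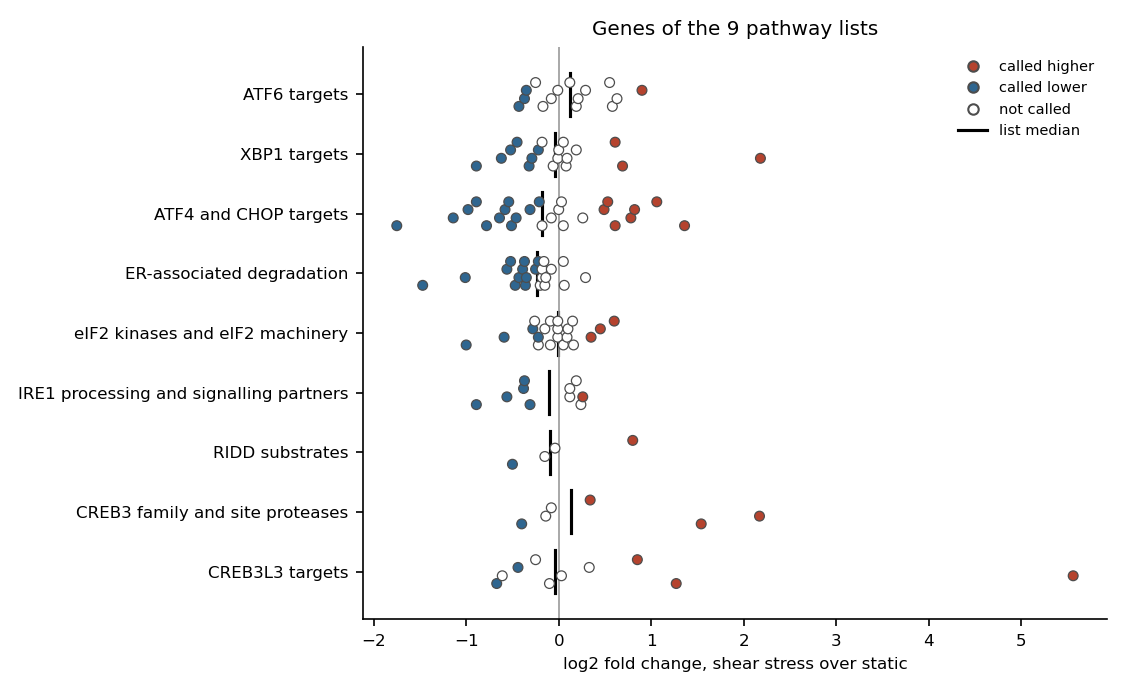
Log2 fold change, shear stress over static, of every tested gene of the 9 pathway lists, with filled points for called genes, open points for the others and a black bar at the median of each list. List medians with TMM lie between -0.23 (ER-associated degradation) and 0.13 (CREB3 family and site proteases), and the point at 5.56 is Hamp. With library totals, which are not drawn, the medians of these lists are -0.01 and 0.35.

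RSEM, which the submitters' processing notes name, gives a gene the mean effective length of its transcripts, weighted by their estimated shares. Count, FPKM and library total together return this effective length, called the estimated length here. It does not measure transcript shares alone. It was within 1.42% between the groups for 8 of the 10 genes. For Ddit3 it was 667, 685, 693 and 646 bases under shear stress, against 766, 755, 786 and 836 bases in static libraries, with no overlap and a difference of -14.3%. Only 0.995% of 8541 genes with at least 100 mean counts in each group had a difference as large. For Eif2ak3 it was 3854 ± 180 bases under shear stress and 4098 ± 69.6 bases in static libraries (SD, n = 4), a difference of -5.96% without overlap, which 4.87% of genes reached. RefSeq lists 2 transcripts for each of these genes. TPM divides by this length, while CPM here does not and carries the TMM factors. Ddit3 averaged 49.9 ± 26.7 TPM under shear stress and 40.9 ± 12.1 TPM in static libraries, but 23.6 ± 13.4 CPM under shear stress and 26.2 ± 7.9 CPM in static libraries, and its log2 fold change was -0.25 with TMM, -0.03 with library totals and 0.17 on the log2(TPM + 1) scale. Xbp1, whose cut and uncut messengers differ by a short intron, was at 1961 ± 4.6 bases under shear stress and 1956 ± 8.29 bases in static libraries, with overlap. Trib3, for which RefSeq lists 1 transcript, was at 1774 ± 1.96 bases under shear stress and 1769 ± 5.17 bases in static libraries. The estimated length of Xbp1 therefore does not show whether its splicing differed.

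**Figure D5:**
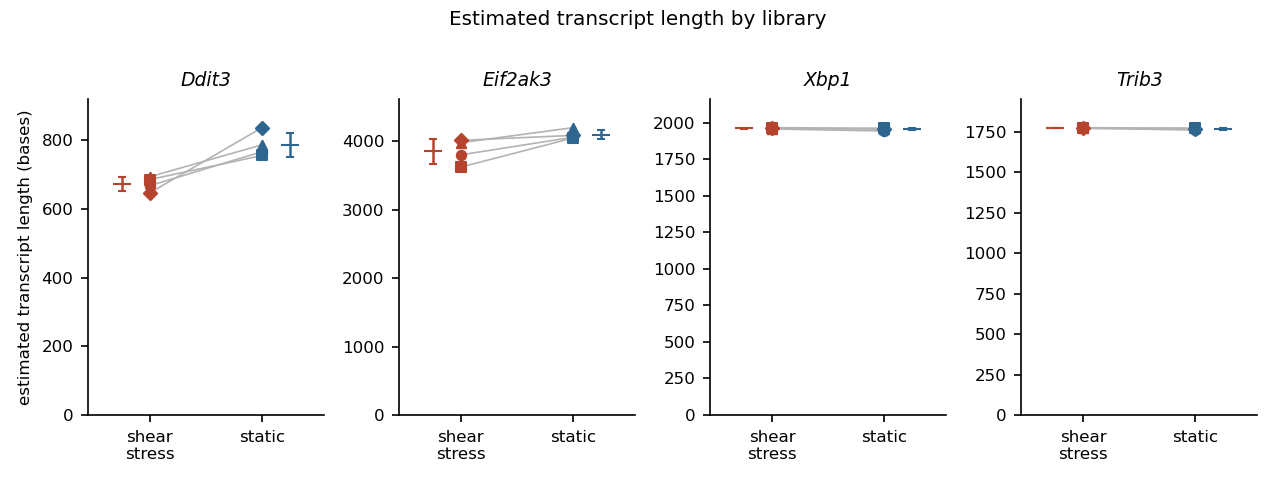
Estimated (effective) transcript length in bases of 4 of the genes, shear stress libraries on the left and static libraries on the right of each panel. Lines join pairs, bars give mean ± SD (n = 4), and axes start at 0. The shear stress libraries of Ddit3 (646 to 693 bases) lie below its static libraries (755 to 836 bases), and Xbp1 and Trib3 are flat.

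The ends of Ddit3 overlap 2 genes on the opposite strand, and whether counting used strand is not given in the sources used here. Mbd6 shares 77 bases and fell (-0.68 ± 0.12, adjusted p = 0.000783, edgeR). Mars1 shares 71 bases and was not called (-0.06 ± 0.08, adjusted p = 0.527, edgeR). Ppp1r15a shares 730 bases with Tulp2, which is listed at 0 TPM in all 8 libraries. The part of these overlaps in the Ddit3 values was not tested.

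By Pearson's r of log2 CPM over the 8 libraries, a description into which the difference between the groups enters, genes most like each of the 10 among 9149 genes were as follows. Atf6 was closest to Cep85l (0.998), Arih2 (0.996) and Asb13 (0.994). Eif2ak3 was closest to Phf10, Clock (both 0.992) and Pias2 (0.991), and Ppp1r15a to Hnrnpu (0.994), Stx3 and Brpf3 (both 0.991). Trib3 was closest to Mmp24, Tmem167 (both 0.992) and Zfp839 (0.991), Xbp1 to Nhsl1 (0.986), Casp8 (0.984) and Socs6 (0.981), and Atf6b to Lrp8 (0.986), Tada3 (0.971) and Ogg1 (0.969). Ern1 was closest to Eif5, Vps37b and Sh3bgrl2 (all 0.979), and Atf4 to Papola (0.976) and Tmem140 (0.975). The 2 genes without a call had lower maxima: Creb3l3 with Agpat3 (0.955), Plpp1 (0.953) and Pxmp4 (0.941), and Ddit3 with Mrps11 (0.948), Dnajc18 (0.943) and Baiap2 (0.942).

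Library totals were 16225843 to 16732203 estimated counts under shear stress and 15067056 to 17935566 in static libraries, and 3 counts correspond to 0.157 to 0.227 CPM. TMM factors were 1.06 to 1.15 under shear stress and 0.876 to 0.966 in static libraries. The cells carried hepatocyte markers, whose summed level was 41081 to 60122 TPM under shear stress and 54865 to 69937 TPM in static libraries. Of these, 7 of 8 were called lower, against 31.0% of all tested genes, and 0 higher. The exception, Hnf4a, was not called (0.16 ± 0.11, adjusted p = 0.24, edgeR). With library totals Hnf4a was called higher (0.39, adjusted p = 0.0134, edgeR), and the 7 stayed called lower. Markers of macrophages summed to 24.9 to 78.4 TPM under shear stress and 27.1 to 68.1 TPM in static libraries, nearly all from Cd68, with 5 of 6 below 1 TPM in every library. Endothelial markers summed to 1.79 to 7.94 TPM under shear stress and 3.47 to 8.96 TPM in static libraries. Of the 5 tested, 1 was called lower (Pecam1, -2.49 ± 0.25, adjusted p = 2.68e-05, edgeR), against 31.0% of all tested genes, and 0 higher. Stellate cell markers summed to 0.67 to 1.37 TPM under shear stress and 0.74 to 1.63 TPM in static libraries. Lymphocyte markers summed to 0 to 0.89 TPM under shear stress and 3.08 to 4.08 TPM in static libraries. Cholangiocyte markers summed to 247 to 1952 TPM under shear stress and 91.5 to 1311 TPM in static libraries, mostly from Spp1. The part of these differences in the results on the 10 genes was not tested, and in bulk RNA fewer cells of a type and less RNA per cell cannot be told apart.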

How the data were processed

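The 8 deposited files hold for each gene, per the file headers, an FPKM, a TPM and an expected count. The authors made these values with RSEM, and the submitters' processing notes also name HISAT, Bowtie2 and the build GRCm38 (mm10). No version, annotation or strand setting is given in the sources used here. Between 9.31% and 10.7% of the deposited expected counts per library were not whole (tolerance 1e-09), and all were rounded. FPKM was used only for the estimated length, an analysis chosen after the data were seen.

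Genes passing filterByExpr by group (11747 of 17276) were scaled with TMM and tested with glmQLFit (robust) and glmQLFTest of edgeR 4.0.16 in R 4.3.3, with the replicate number as a block and Benjamini-Hochberg adjustment at 0.05. Standard errors were derived from the log2 fold change and the root of its F statistic. The procedure was tested on simulated data in which 61, 69 and 70 of 11747 genes changed 1.5-fold, 2-fold and 4-fold. It recovered 50.8%, 82.6% and 97.1% of these, and 5.45% of its calls were false. Far fewer genes changed there than were called here, so the simulation does not test the scaling. The replicate numbers pair the libraries: after removal of group means, same-numbered libraries correlated at r = 0.679, 0.642, 0.56 and 0.467 over 8450 genes. The highest r between different numbers was -0.0178. Removing the group means pushes these values below 0 on average where same-numbered libraries correlate, so they are no separate support for the pairs. What a number stands for is not given in the labels. No 2 libraries of a group agreed within sampling noise (chi-square at least 45.2 times its degrees of freedom).

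Alternatives were the fit without the block, DESeq2 1.42.0, upper quartile factors, library totals, no filter, limma 3.58.1 on log2(TPM + 1) and log2(TPM + 0.1), and leaving out libraries or pairs. The members and the gene lists were chosen with earlier results of these data known. From each list the text names up to 5 called genes with the smallest p and a mean of at least 1 TPM in either group, or the most abundant gene where none was called, and 8 genes whatever their values (Hspa5, Dnajb9, Herpud1, Asns, Chac1, Atf3, Fgf21 and Ppp1r15b). The genes most like each member had a mean of at least 5 CPM. Eif2ak1, Eif2ak2 and some list genes outside this rule were named after their values were seen, and some genes that the rule picks are not reported here. Coordinates are whole-gene spans of RefSeq on GRCm38.p6.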

Additional observations from a re-analysis of the deposited data

Results flagged for a closer look

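In groups of 4 libraries, 7 of 100 groups (50 named genes, CPM) had a library whose gap to the nearest other was larger, relative to the group's range, than Dixon's 95% critical value, as chance gives for about 1 group in 20. Among the 10 regulators this was Ppp1r15a in shear stress replicate 1, the highest of its group at 105 CPM and still below every static library. Shear stress replicate 1 was also the highest for Hspa5 (3648 CPM) and Sparc (5.44 CPM). Shear stress replicate 3 was the highest for Apoa4 (493 CPM). In static libraries, replicate 3 was the highest for Creld2 (55 CPM) and Ero1b (72.6 CPM), and replicate 1 the lowest for Ppp1cc (39.0 CPM).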

How the results depend on the processing

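The counts of the 10 regulators called higher (3) and lower (5) stayed within 1.5 times in all 19 alternatives, and each of the 8 calls was kept. Without the replicate block, that is without the pairing, the pathway lists had 28 genes called lower, against 43 with it. All tested genes called lower numbered 2294 with library totals, 2215 with limma on log2(TPM + 1) and 2208 on log2(TPM + 0.1), against 3645. In the same order, the genes of the 9 lists called higher numbered 38, 39 and 40, against 22, and those called lower 24, 24 and 24. The share of called genes that were higher was 49.2% with TMM. It was 61.7% under upper quartile factors, 68.9% under library totals and 69.7% in limma on TPM, which shifted the median of all genes by 0.14, by 0.22 and by 0.18 to 0.22 (log2). Leaving out each library or pair in turn gave 2224 to 3456 of all genes called lower (2373 without shear stress replicate 1), 13 to 22 list genes called higher (14 without static replicate 1 and 14 without static replicate 2) and 26 to 39 called lower. Leaving 1 library out used the fit without the block, and so also loses the pairing.

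Signs turned for 6 named genes. For Ddit3 the log2 fold change was 0.17 with limma on TPM under both pseudocounts and between -0.56 and 0.10 over the left-out libraries, and for Creb3l3 between -0.66 and 0.06. It was 0.01 for Asns with library totals and 0.02 with limma under both pseudocounts. Over the left-out libraries it was between -0.22 and 0.43 for Fgf21 (-0.21 without pair 3, -0.13 without shear stress replicate 4, and -0.08, -0.18 and -0.03 without static replicates 1, 2 and 3), between -0.08 and 0.29 for Hspa5 (-0.06 without pair 1) and between -1.49 and 0.09 for Apoa4. Of the 48 called genes that the rule for named genes picks, 27 were called in every alternative and 21 lost the call in at least 1. The cause of these changes was not tested. The lowest values among the 10 genes were 175 estimated counts for Ddit3 and 190 for Atf6b, each in 1 library.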

Other observations

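Of the listed genes too low to test, Ern2, the intestinal relative of Ern1, had 0 counts in all 4 shear stress libraries and 1 count in 1 static library. Stc2, a secreted glycoprotein and listed ATF4 target, had 0 to 2 counts per library in both groups. Scara3 had 9, 1, 1 and 2 counts in shear stress libraries, against 1, 0, 0 and 0 in static libraries. Pmp22, Col6a1 and Pdgfrb had between 0 and 9 counts per library.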
